A study of Mus musculus with 48 samples.

Results

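FFPE (formalin-fixed, paraffin-embedded) and FROZ (frozen) liver of the same mice were compared at the highest dose of dichloroacetic acid (DCA). The comparison takes the 6 animals at 427 mg/kg-d and the 12 TempO-Seq libraries made from them, 1 FROZ and 1 FFPE library for each animal, out of 24 animals and 48 libraries. All were male B6C3F1 mice, 4 weeks old, with no engineered allele named, and the dose corresponds to 3.5 g/L of DCA in drinking water for 6 days. The 6 vehicle control mice (0 mg/kg-d), handled alike but without DCA, serve as the reference for the preservation effect, while 6 mice at 198 and 6 at 313 mg/kg-d are used only for a few values. FROZ libraries were made from RNA isolated from mixed lobes, the caudate lobe included. FFPE libraries were made from lysates of deparaffinized sections of the left lateral and right medial lobes. Both tissues had been stored for decades, FROZ frozen and FFPE in paraffin at ambient temperature. Preservation, lobe, RNA isolation and storage therefore change together between the libraries of a pair, and their parts cannot be told apart.

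Formalin links RNA to proteins and to itself and modifies its bases, and RNA in paraffin blocks breaks into short pieces with time. TempO-Seq reads a transcript through 2 adjoining detector oligos that bind a short stretch of it, are ligated and then counted, so a gene is seen only where that stretch is intact and accessible. Hepatocytes make up most of the liver and secrete the plasma proteins, among them the Serpina1 protease inhibitors. DCA in rodent liver is known to induce genes of fatty acid oxidation under the nuclear receptor PPAR alpha, among them acyl-CoA thioesterases (Acot) and Cyp4a hydroxylases.

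Gene levels are CPM (reads per 1000000) over the 6591 gene symbols listed once in both tables, so that FROZ and FFPE stand on 1 scale. Differences are FFPE minus FROZ on the log2(CPM + 1) scale within an animal, averaged over 6 animals with the standard error (SE) of limma. This scale understates the change of genes with few reads. A gene was called at an FDR under 0.05 (limma, Benjamini-Hochberg over all 6591 genes) and a fold change above 2. Gene positions and sequences are from GENCODE vM21 on GRCm38 (mm10). The oligo sequences were not used here, so the stretches printed are coding sequence of the genes, not probes.

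FFPE libraries held fewer reads and more empty genes than the FROZ libraries of the same livers. FROZ libraries had 7.20 to 8.85 M reads (M, 1000000) on the shared genes and FFPE libraries 4.22 to 6.00 M. The FFPE library held 62.9% of the reads of its FROZ partner (geometric mean, range 58.4 to 67.8% over 6 animals). The log2 ratio was -0.67 ± 0.09 (SD, n = 6). By a two-sided exact sign-flip test p was 0.0312, which is the lowest 6 pairs allow. Between 1 and 4 genes were at 0 in FROZ libraries and between 49 and 239 in FFPE libraries, a mean gain of 134.2 ± 74.0 genes (SD, n = 6; exact sign-flip p = 0.0312). The 10 highest genes took 11.6 to 12.8% of CPM in FROZ and 18.4 to 20.7% in FFPE. Another 4680 symbols were listed in FROZ alone, with a median of 2.42 CPM at this dose, and 924 of them reached 10 CPM. The highest of these were Sec24a (407.7 CPM in the median FROZ library), a coat protein of vesicles that leave the endoplasmic reticulum, and Tmem19 (371.8 CPM). They held 4.29% of FROZ CPM, whereas 80 symbols were listed in FFPE alone. Depth limits what can be said of a gene at 0, since 3 reads correspond to 0.324 to 0.400 CPM in FROZ and 0.499 to 0.708 CPM in FFPE, and such limits cover counting error only.

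More than 1 gene in every 2 was called at this dose, in both directions, and the calls covered abundant liver genes as well as rare ones. Of 6591 genes, 2128 (32.3%) were higher in FFPE and 1403 (21.3%) lower. The median difference over all genes was 0.31, with quartiles at -0.84 and 1.36. In 1884 of the 2128 genes and 1335 of the 1403 genes, all 6 animals had the same direction. The FROZ and FFPE values of 3472 genes (52.7% of 6591) did not overlap. Changes above 8-fold were called for 191 genes higher in FFPE and 218 lower. When libraries were scaled by their median ratio in place of CPM, the median of all genes moved by 0.41 to -0.10, and the split turned to 1538 higher and 1928 lower. The share of higher genes among calls was thus 60.3% by CPM and 44.4% by median ratio, and differences below are best read against the median of all genes.

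**Figure D1:**
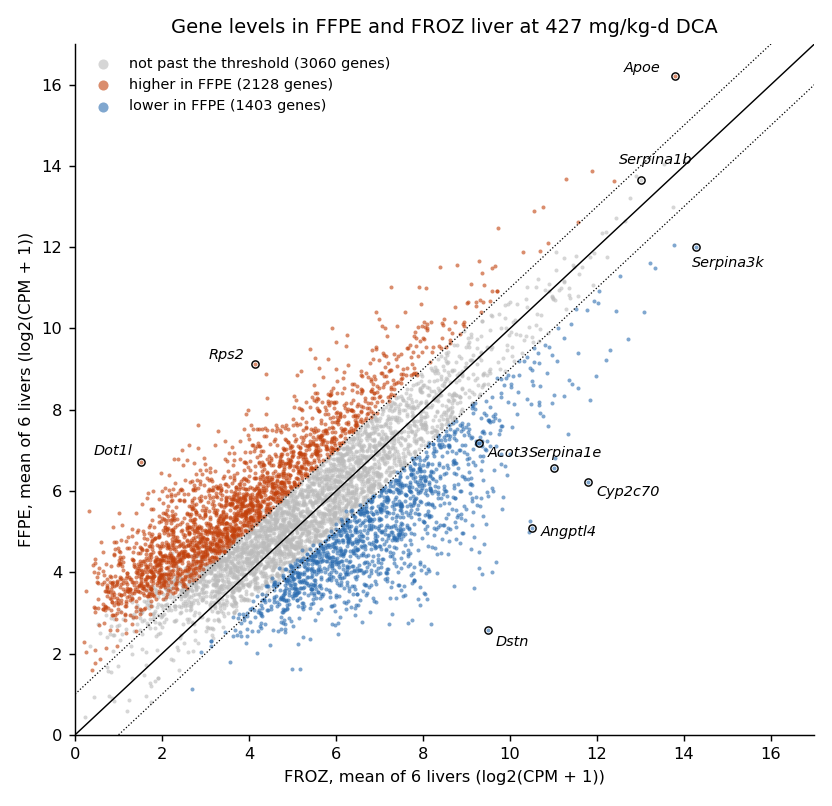
Mean level of each of 6591 genes in FROZ (horizontal axis) and FFPE (vertical axis) over the 6 livers at 427 mg/kg-d, both as log2(CPM + 1), with the line of equal levels and dotted lines at 2-fold. The 2128 genes higher in FFPE lie above and to the left, many at low FROZ levels, and the 1403 genes lower in FFPE lie below and to the right.

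The gene with the highest CPM was not the same in the 2 preservations. Since the reads of very abundant transcripts were attenuated in the assay, an order of CPM is not an order of transcript abundance, and ranks given here are by mean CPM over 6 animals. Serpina3k, a hepatocyte protease inhibitor of the same clade as Serpina1, was first in FROZ, with 14383 CPM in the lowest, 19272 in the median and 26571 in the highest animal. In FFPE it was at 2599, 3746 and 5729 CPM, a difference of -2.28 (SE 0.07, FDR 1.01e-09), and it ranked 21st. Apoe, the apolipoprotein by which lipoprotein remnants are taken up, was first in FFPE at 65462, 75394 and 90376 CPM. Apoe was at 12383, 13682 and 16617 CPM in FROZ, where it ranked 3rd by the mean, a difference of 2.43 (SE 0.07, FDR 1.01e-09). For both genes no FROZ animal overlapped any FFPE animal. Apoa1, the main protein of high-density lipoprotein, was second in both by the mean, with medians of 16689 CPM in FROZ and 17358 in FFPE and a difference of 0.14 (SE 0.07, FDR 0.102). Its difference was -0.30 under median-ratio scaling, so that no direction can be given. The 10 highest genes of the 2 preservations had 4 in common, the 100 highest 63, and the 1000 highest 588. Across the 6591 genes, FFPE and FROZ levels of an animal correlated at r = 0.61 to 0.72. FROZ libraries of 2 animals correlated at r = 0.98 to 0.99 and FFPE libraries of 2 animals at r = 0.79 to 0.88. These values are across genes, which are not independent replicates, and share the gene-specific yield of the probes.

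The 10 genes with the largest decreases in FFPE were at 216 CPM (Ttc1) to 5140 CPM (Cyp2c70) in FROZ, and a few of them came down to single reads in some FFPE libraries. The largest decrease was that of Dstn (chr2:143915320-143943324), which encodes destrin, a protein that disassembles actin filaments. It was at 688, 721 and 753 CPM in FROZ (lowest, median and highest animal) and at 0.199, 5.62 and 9.86 CPM in FFPE. The difference was -7.37 (SE 0.41, FDR 5.18e-08). Ttc1, a tetratricopeptide repeat protein, was at 216 to 348 CPM in FROZ and 0 to 10.8 in FFPE, and Gm4788, a gene related to complement factor H, at 351 to 508 and 0 to 23.0. Each of these 3 genes was at 0 or 1 read in 2 FFPE libraries, whereas Cyp2c70 had at least 57 reads and Cyp3a41a at least 73 in every FFPE library. The other genes of this group included secreted and metabolic hepatocyte proteins. Cyp2c70, a cytochrome P450 that hydroxylates bile acids in mice, was at 2279, 3172 and 5140 CPM in FROZ against 13.5, 84.8 and 134 in FFPE (difference -5.84, SE 0.42, FDR 3.18e-07). Hsd17b13, an enzyme of the lipid droplet surface, differed by -5.82 and Angptl4, a secreted inhibitor of lipoprotein lipase and a PPAR alpha target, by -5.72. Angptl4 fell in the median from 1466 CPM in FROZ to 31.1 in FFPE. Vcp (-5.70), an ATPase that extracts proteins for degradation, Dpm1 (-5.65), a subunit of dolichol-phosphate mannose synthase, Zfand6 (-5.62), a zinc finger protein, and the cytochrome P450 Cyp3a41a (-5.53) completed the 10 largest decreases. None of the 10 had an FFPE animal within the range of the FROZ animals, but they were picked for large differences shared by all 6 animals. Of all 6591 genes, 52.7% had no overlap in either direction.

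The genes that were much higher in FFPE were, with few exceptions, at a few CPM in FROZ. Dot1l (chr10:80755206-80795461), the methyltransferase of histone H3 lysine 79 as textbooks name it, was at 1.30, 1.73 and 2.498 CPM in FROZ and at 74.7, 96.3 and 152 CPM in FFPE. The difference was 5.18 (SE 0.26, FDR 2.36e-08). Igsf8, an immunoglobulin-type membrane protein, had 1 to 3 reads in each FROZ library and 20.8 to 66.5 CPM in FFPE. Its summed reads per depth were 174.9 times those of FROZ, with an exact interval of 99.8 to 339.3 that covers counting error only. Rps2, a protein of the small ribosomal subunit, had a higher floor, with 12.4, 17.4 and 19.4 CPM in FROZ and 471, 544 and 648 CPM in FFPE (difference 4.98, SE 0.16, FDR 1.25e-09). The next was Polr3gl, a subunit of RNA polymerase III, at 4.76. Ndufb11, a subunit of respiratory complex I, differed by 4.50 and Adam11, a metalloprotease-like membrane protein, by 4.49. Acaa1b, a peroxisomal thiolase of the last step of beta-oxidation, was at 11.4 to 24.2 CPM in FROZ and 259 to 639 in FFPE (4.46, SE 0.13, FDR 1.01e-09). Dgkq, a diacylglycerol kinase (4.45), Bloc1s4, a subunit of a complex for lysosome-related organelles (4.32), and Selenoh, a selenoprotein (4.31), were the last of the 10. In all 10 genes every FFPE animal lay above every FROZ animal, which picking them by size and shared direction makes likely. Of all 6591 genes, 52.7% had no overlap in either direction.

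**Figure D2:**
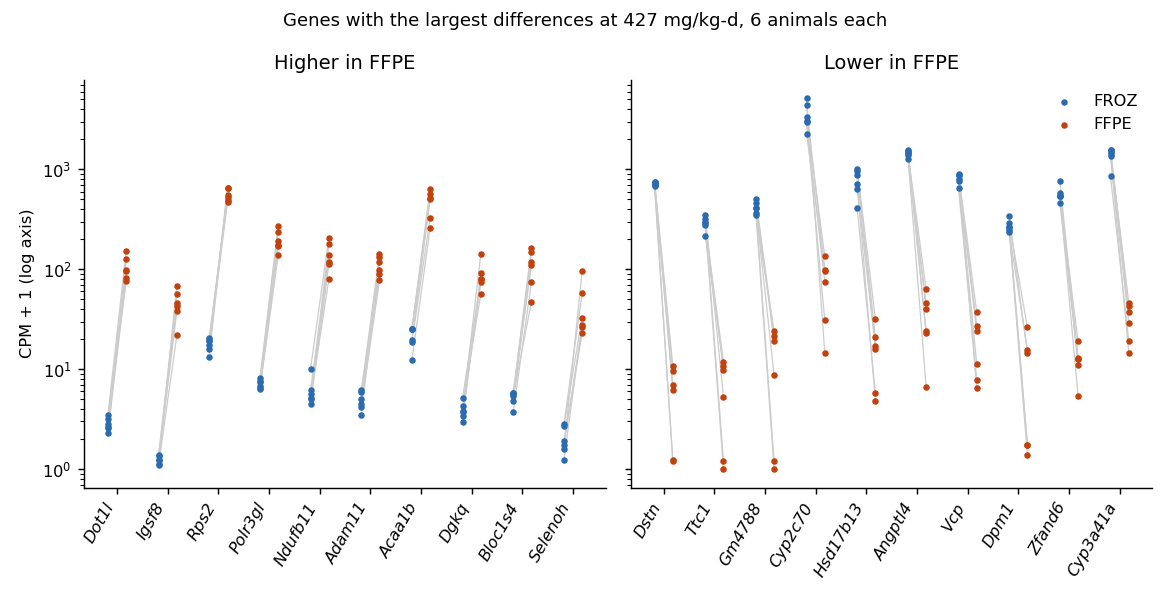
CPM + 1 on a log axis in FROZ and FFPE libraries of the 6 animals at 427 mg/kg-d for the 10 genes with the largest increases (left) and decreases (right), with a line joining the libraries of an animal. Dot1l rose from 1.30 to 2.498 CPM in FROZ to 74.7 to 152 in FFPE, and Dstn dropped from 688 to 753 CPM to 0.199 to 9.86. None of the 20 genes, picked for large differences, showed overlap, and 52.7% of all 6591 genes showed none.

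Several of these genes share sequence with others, and reads may have been split between them. Of the 50-base windows of the transcript with the longest coding part, Cyp3a41a shares 98.6% with other genes, most often Cyp3a41b. Rps2 shares 76.8%, most often with the pseudogene Rps2-ps10, Vcp 60.1%, Dpm1 37.7%, Gm4788 19.6%, Ndufb11 9.55% and Acaa1b 35.5%, the last with its paralog Acaa1a. These shares are over whole transcripts. The stretch bound by the oligos was not used here, so the shares do not measure how uncertain the values of these genes are. Dstn, Ttc1, Dot1l and Igsf8 share 0%.

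The 3 genes with the largest decreases and the 3 with the largest increases also differed in base composition. For each gene the stretch of 50 coding bases within 1 exon whose GC equals the median over its stretches is shown, with G and C in capitals. Dstn, Ttc1 and Gm4788 were lower in FFPE, and Dot1l, Igsf8 and Rps2 higher.

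Dstn, chr2:143938388-143938437, + strand, 22 of 50 bases G or C: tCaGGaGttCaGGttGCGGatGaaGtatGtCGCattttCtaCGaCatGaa

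Ttc1, chr11:43745363-43745412, - strand, 23 of 50: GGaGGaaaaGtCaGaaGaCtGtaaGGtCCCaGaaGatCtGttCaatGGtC

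Gm4788, chr1:139774607-139774656, - strand, 20 of 50: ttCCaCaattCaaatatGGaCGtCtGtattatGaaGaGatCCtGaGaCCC

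Dot1l, chr10:80768617-80768666, + strand, 30 of 50: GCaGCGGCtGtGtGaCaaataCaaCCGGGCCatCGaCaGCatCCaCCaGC

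Igsf8, chr1:172312540-172312589, + strand, 32 of 50: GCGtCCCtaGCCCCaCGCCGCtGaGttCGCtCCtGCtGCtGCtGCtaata

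Rps2, chr17:24720669-24720718, + strand, 29 of 50: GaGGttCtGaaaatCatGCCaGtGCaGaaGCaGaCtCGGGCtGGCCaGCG

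The coding GC of a gene went with its difference across the whole table. Of the 6591 genes, 6447 have an annotated coding transcript, and over these the difference correlated with coding GC at a Spearman rho of 0.51 and a Pearson r of 0.50. The correlation was 0.44 to 0.48 (Spearman) in each of the 6 animals taken alone and 0.40 to 0.47 in the 6 vehicle animals. Over the 4722 genes with at least 10 CPM in both preservations it was 0.47. Genes are not independent replicates, and these are descriptions over 1 set of probes. When genes were cut into 10 deciles of equal size, the lowest decile by coding GC (36.1 to 44.9% GC) had a median difference of -1.29, and 7.91% of genes were higher and 54.4% lower in FFPE. In the highest decile (60.1 to 76.2% GC) the median was 1.55, with 62.0% higher and 3.88% lower. The medians rose through all 10 deciles, and in each of the 6 animals the median of the highest decile was at least 1.505 and that of the lowest at most -1.15. Transcript length showed no such relation (Spearman rho 0.01). The 924 genes listed in FROZ alone with at least 10 CPM lay on the same side, with a median coding GC of 47.6% over 905 annotated genes against 52.0% over 4862 genes of both tables at that level. There were exceptions, such as Angptl4, with 57.6% coding GC and a difference of -5.72.

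**Figure D3:**
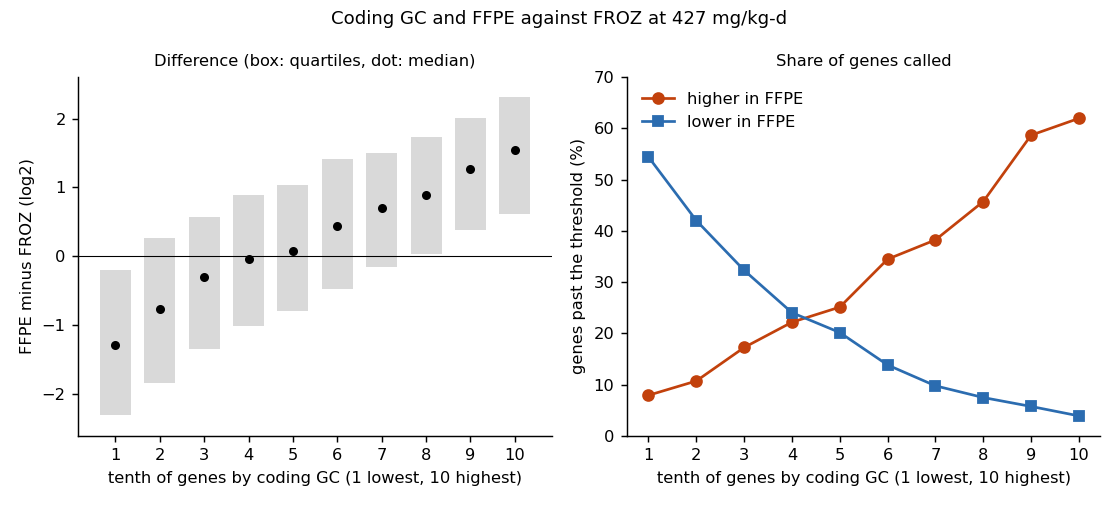
Left, FFPE minus FROZ difference (log2) in deciles of 6447 genes by coding GC, with boxes from the first to the third quartile and dots at the median. Right, percentage of genes called higher (circles) or lower (squares) in FFPE in each decile. Medians rise from -1.29 to 1.55, and the share called higher rises from 7.91 to 62.0%.

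The FROZ level of a gene also went with its difference (Spearman rho -0.59 across 6591 genes), although the FROZ value enters both measures and a rare gene had to be high in FFPE to be listed there. In the lowest decile of genes by FROZ level (0.145 to 3.73 CPM) 514 of 660 genes were higher in FFPE and 0 lower, by the limma call. In the highest decile (280.5 to 19842 CPM) 51 of 659 were higher and 335 lower. The lowest decile thus holds 514 of the 2128 genes called higher.

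Among genes whose products work in 1 complex, members were found in both directions, where all genes had 32.3% higher and 21.3% lower. Cytosolic ribosomal protein and respiratory chain genes were near these shares. Proteasome and mitochondrial ribosomal protein genes had more members lower than higher. Of 58 cytosolic ribosomal protein genes, 21 were higher and 12 lower in FFPE, with a median of 0.35 against 0.31 for all genes, and the members ran from -2.88 to 4.98. Rpl4, a large subunit protein, was at 610, 656 and 714 CPM in FROZ and 2333, 2702 and 2848 in FFPE (2.00, SE 0.06, FDR 1.35e-09). Rpl38, of the same subunit, went the other way, from 234, 256 and 297 CPM to 26.9, 34.0 and 60.5 (-2.84, SE 0.16, FDR 5.62e-08). Rpl38 shares 52.1% of its windows with other genes, most often the pseudogene Rpl38-ps2, and Rpl4 16.5%. Among 26 proteasome subunits 5 were higher and 11 lower, with a median of -0.66. Psmb6, a catalytic subunit of the core, was at 65.8 to 85.9 CPM in FROZ and 794 to 1010 in FFPE (3.57), while Psmd6, a subunit of the cap, was at 392 to 794 and 4.08 to 26.0 (-5.34). Nuclear-encoded respiratory chain genes (60 members) had 19 higher and 16 lower with a median of 0.14, and mitochondrial ribosomal proteins (51 members) 12 higher and 18 lower with a median of -0.02. Members of these lists ran from -3.87 to 4.50 and from -4.57 to 3.30.

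Of 15 housekeeping genes 2 were higher and 6 lower, with a median of -0.39, against 32.3% higher and 21.3% lower of all genes. Rplp0, a ribosomal stalk protein, was at 196 to 317 CPM in FROZ and 843 to 1300 in FFPE (2.10, SE 0.08, FDR 2.77e-09), with 41.8% of its windows shared. Tfrc, the transferrin receptor, was at 265 to 461 CPM in FROZ and 6.21 to 43.8 in FFPE (-4.14, SE 0.22, FDR 4.02e-08).

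Lists of hepatocyte genes also held members in both directions, to be read against 32.3% higher, 21.3% lower and a median of 0.31 for all genes. Of 45 plasma protein genes 7 were higher and 17 lower (median -0.57), and of 9 other Serpina genes 2 were higher and 5 lower (median -2.18). Cytochrome P450 genes had 7 higher and 21 lower of 43 (median -1.004), and their median coding GC was 49.1% against 53.0% for all genes. Cyp2e1, the ethanol-inducible P450 of the pericentral zone, was at 8608, 9625 and 10468 CPM in FROZ and 2473, 3284 and 3463 in FFPE (-1.60, SE 0.09, FDR 3.59e-08). Cyp2c29, another pericentral P450, differed by -3.63, and Ugt2b5, a glucuronosyltransferase with 41.7% shared windows, by -3.30. Ugt2b genes had 0 higher and 2 lower of 4 (median -1.85), and urinary protein (Mup) genes 2 higher and 4 lower of 12 (median 0.39). Of 14 pericentral genes 3 were higher and 4 lower (median 0.05), and of 20 periportal genes 3 were higher and 6 lower (median -0.56). Summed over the list, pericentral genes were at 13225 to 15926 CPM in FROZ and 3718 to 5135 in FFPE, a sum in which Cyp2e1 is the largest part. Summed periportal genes were at 13236 to 14623 CPM in FROZ and 16982 to 24802 in FFPE, with Arg1 as the largest part. Neither sum overlapped between preservations, in opposite directions. Within the periportal zone, the urea cycle enzyme Otc was at 438 to 586 CPM in FROZ and 12.5 to 66.5 in FFPE (-3.85), and Arg1, a further enzyme of that cycle, at 7073 to 8554 and 11443 to 17201 (0.82, SE 0.09, FDR 9.22e-06). Pck1, which commits carbon to gluconeogenesis, was higher by 1.96 and Uroc1, of histidine breakdown, by 4.10. The lobes sampled differed between FROZ and FFPE, and their part in these values was not tested.

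**Figure D4:**
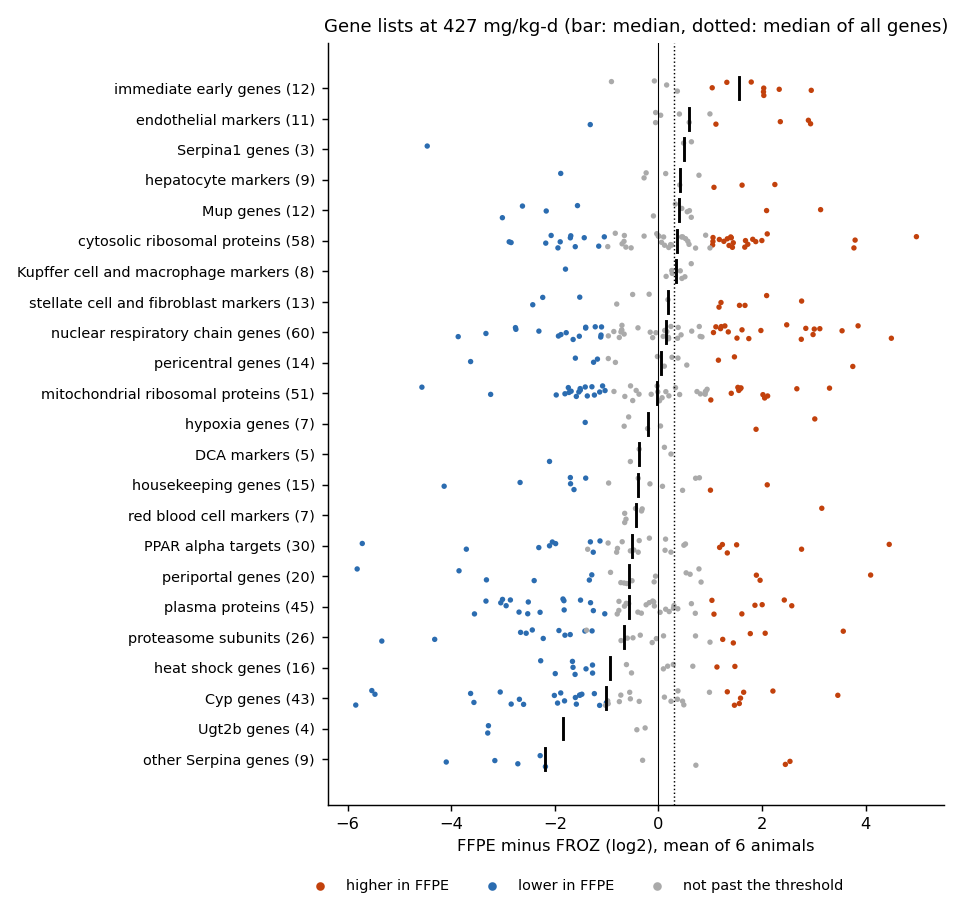
FFPE minus FROZ difference (log2, mean of 6 animals) of each gene in 23 lists with at least 3 members in both tables, coloured by the call, with the list's median as a bar and the median of all genes (0.31) as a dotted line. Numbers in brackets are members in both tables. Immediate early genes have the highest median (1.56), other Serpina genes the lowest (-2.18), and most lists span both directions.

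Of 12 immediate early genes, transcription factors and feedback regulators that are induced within minutes, 8 were higher in FFPE and 0 lower by limma, with a median of 1.56 (1.16 under median-ratio scaling), where all genes had 32.3% higher and 21.3% lower. Jund, an AP-1 subunit, was at 196, 223 and 247 CPM in FROZ and 787, 926 and 996 in FFPE (2.03, SE 0.10, FDR 2.06e-08), and Klf2, a zinc finger factor, differed by 2.95. These 12 genes have a median coding GC of 60.6%. Their median difference was 0.15 after the median of the gene's own GC decile had been taken off, a setting chosen after the data were seen. In vehicle livers their median, without that step, was 1.24. Heat shock genes, which fold proteins, had 2 higher and 8 lower of 16 (median -0.94). Their median coding GC was 47.3%, and their median difference was -0.39 after the same step. The part of GC in the values of either list was not tested. Hspa8, the constitutive cytosolic chaperone, was at 1045 to 2310 CPM in FROZ and 251 to 641 in FFPE (-1.99, SE 0.13, FDR 1.30e-07), with 73.2% of its windows shared. Hypoxia genes had 2 higher and 1 lower of 7 (median -0.21).

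Hepatocyte markers were abundant in both preservations. Counts of called markers of each cell type are to be read against 32.3% higher, 21.3% lower and a median of 0.31 for all genes. Of 9 hepatocyte markers 3 were higher and 1 lower (median 0.41), and their summed level was 25828 to 29641 CPM in FROZ and 37763 to 42169 in FFPE. Fah, of tyrosine breakdown, was at 1373 to 2034 CPM in FROZ and 7148 to 9836 in FFPE (2.25), Hnf4a, a hepatocyte transcription factor, differed by 1.62 and Cyp3a11 by -1.89. In bulk tissue, fewer cells of a type and less RNA per cell cannot be told apart. Of 11 endothelial markers 4 were higher and 1 lower (median 0.60), with Clec4g, a lectin of the sinusoid lining, at 24.5 to 42.7 CPM in FROZ and 200 to 346 in FFPE (2.90, SE 0.16, FDR 3.84e-08). Bmp2, a ligand that sinusoidal cells release to control hepatocyte iron metabolism, was the lower one, at 47.0 to 65.2 CPM in FROZ and 7.10 to 39.6 in FFPE (-1.32, SE 0.27, FDR 0.00104), though it was not called with an offset of 10 CPM or with all 24 animals in 1 fit. Another 6 endothelial markers were listed in FROZ alone, among them Gpr182 at 108.5 to 160.1 CPM, Dnase1l3 at 119.9 to 159.0 and Oit3 at 52.3 to 65.8. Stellate cell and fibroblast markers had 6 higher and 3 lower of 13 (median 0.18), with Sparc, a matrix protein, at 48.9 to 99.0 and 409 to 661 CPM (2.77). Of 8 Kupffer cell and macrophage markers 0 were higher and 1 was lower (median 0.34), and 4 of the list, among them the Kupffer cell lectin Clec4f at 4.86 to 7.47 CPM, were listed in FROZ alone. Of 7 red blood cell markers only Alas2, the first enzyme of erythroid heme synthesis, was called, at 3.32 to 10.2 CPM in FROZ and 21.2 to 137 in FFPE (3.15). The summed red blood cell level was 41.5 to 96.1 CPM in FROZ and 45.5 to 205 CPM in FFPE. Under median-ratio scaling the medians of hepatocyte (-0.03), Kupffer cell (-0.06) and stellate cell (-0.25) markers were below 0, as were those of Mup (-0.02), pericentral (-0.39) and respiratory chain (-0.30) genes, so that no direction is given for them. Bile duct markers had 1 higher and 1 lower of 2, and the single lymphocyte and pancreas genes of both tables were not called.

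Of the markers of DCA exposure only Acot3 differed by more than 2-fold between preservations at this dose. Of 8 such markers 5 were in both tables, of which 1 was lower and 0 higher in FFPE (median -0.37). Acot1, a cytosolic acyl-CoA thioesterase, was at 284, 593 and 758 CPM in FROZ and 416, 658 and 787 in FFPE (0.24, SE 0.10, FDR 0.0546). Cyp4a10, a fatty acid omega-hydroxylase, was at 1914, 2623 and 3559 CPM in FROZ and 1466, 2043 and 2661 in FFPE (-0.37, SE 0.11, FDR 0.0112). The 2 preservations overlapped in both genes. Cyp4a14, of the same family, differed by -0.54 (SE 0.13, FDR 0.00347) and Cyp2a4, a steroid hydroxylase, by 0.12 (SE 0.13, FDR 0.426). Under median-ratio scaling the values of Acot1 and Cyp2a4 were -0.20 and -0.33, so that no direction can be given for them. Acot1 shares 33.6% of its windows with other genes, most often Acot2, Cyp2a4 38.0%, most often with Cyp2a5, and Cyp4a10 30.5%, most often with Cyp4a32. Cyp4a14 shares 0.245%. Whether reads were split between these genes and their relatives was not tested. Acot2, Cyp2b9 and Cyp4a31 were listed in FROZ alone, at 22.4 to 64.4, 18.9 to 159.7 and 42.4 to 85.4 CPM. Among 30 PPAR alpha targets in all, 6 were higher and 9 lower (median -0.51). Both lists are to be read against 32.3% higher, 21.3% lower and a median of 0.31 for all genes. Fabp1, the liver fatty acid binding protein, was at 10197, 11225 and 13806 CPM in FROZ and 10594, 17742 and 22833 in FFPE (0.49, SE 0.12, FDR 0.00407).

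The preservation effect at 427 mg/kg-d went along with that in vehicle livers across genes. Mean differences of the 2 doses, which come from different animals, correlated at r = 0.94 (Spearman rho 0.93) across the 6591 genes and share the probes. Of the 2128 genes higher in FFPE at 427 mg/kg-d, 77.6% were also called higher in vehicle livers, and these are 83.5% of the vehicle calls. For lower genes the shares were 86.5 and 85.3%. No gene was called in opposite directions. The difference between the doses was tested by limma on the per-animal differences of 6 and 6 animals, and 6 genes passed an FDR of 0.05 (0.091% of 6591), with 495 genes at an unadjusted p under 0.05. Since both tables hold both doses, this equals the difference between the DCA effects measured in FFPE and in FROZ. Those described here are Serpina1b, Serpina1e, Acot3, Ppm1k and Ugt1a6a.

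Serpina1b and Serpina1e passed in the most settings. They lie in 1 gene cluster on chromosome 12, with Serpina1a between them (Serpina1b at chr12:103728156-103830373, Serpina1e at chr12:103946931-103958975) and encode alpha-1-antitrypsin forms that hepatocytes secrete to inhibit neutrophil elastase and related proteases. In FROZ, Serpina1b was at 6982, 8437 and 9388 CPM in vehicle livers and at 7147, 8514 and 8600 CPM at 427 mg/kg-d. In FFPE it was at 28373, 34533 and 41297 CPM in vehicle livers and at 11718, 12467 and 14214 CPM at 427 mg/kg-d. FROZ levels of the 2 doses thus overlapped, whereas every treated FFPE liver lay below every vehicle FFPE liver. FFPE minus FROZ was 2.07 in vehicle livers and 0.64 (SE 0.07, FDR 1.51e-05) at 427 mg/kg-d, below the 2-fold limit, and the difference between doses was -1.44 (SE 0.12, FDR 3.55e-05).

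Serpina1e was lower at the high dose in both preservations, and more so in FFPE. In FROZ it was at 5777, 7718 and 11211 CPM in vehicle livers and at 681, 1480 and 4718 CPM at 427 mg/kg-d. In FFPE it was at 1704, 3277 and 4294 CPM and at 29.5, 95.7 and 192 CPM. Neither preservation showed overlap between the doses. At 427 mg/kg-d animal 100 was highest in both preservations (4718 and 192 CPM), whereas animal 102 was second in FROZ (2655 CPM) and lowest in FFPE (29.5 CPM). FFPE minus FROZ was -1.37 in vehicle livers and -4.46 (SE 0.30, FDR 2.05e-07) at 427 mg/kg-d, and the difference between doses was -3.09 (SE 0.41, FDR 0.00486). The doses in between lay between these values or near the vehicle. FFPE minus FROZ of Serpina1e had a median of -1.40 at 198 and -3.65 at 313 mg/kg-d, and that of Serpina1b 1.95 and 1.33.

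The Serpina1 genes are close copies, and their reads could be divided differently between them in each library. The coding parts of Serpina1b and Serpina1e are 1239 bases each and identical at 96.3% of positions, and 28.5% of their 50-base windows are the same. Over the whole transcript, Serpina1b shares 47.1% of its windows with other genes, most often Serpina1a. Serpina1e shares 37.9% and Serpina1a 67.4%, both most often with Serpina1c. The stretch with the most differences holds 11 in 50 bases, shown from coding base 1111 with the differing bases in capitals.

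Serpina1b, chr12:103728324-103728373, - strand: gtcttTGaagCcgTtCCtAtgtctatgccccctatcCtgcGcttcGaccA

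Serpina1e, chr12:103947100-103947149, - strand: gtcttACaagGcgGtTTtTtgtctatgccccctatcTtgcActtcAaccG

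Of 6 Serpina1 genes 3 were in both tables, with 0 called higher and 1 lower. Serpina1a, the last of them, was at 34.5 to 67.5 CPM in FROZ and 28.5 to 110 in FFPE at 427 mg/kg-d (0.49, SE 0.20, FDR 0.0452). The CPM of the 3 genes were therefore also summed, a step chosen after the data were seen and given as a description with no test, since Serpina1b makes up 89.0 to 93.9% of the sum in FFPE of vehicle livers and 97.7 to 99.3% at 427 mg/kg-d. The sum was at 12950 to 20096 CPM in FROZ and 30217 to 45169 in FFPE in vehicle livers, and at 8644 to 12780 and 11857 to 14389 CPM at 427 mg/kg-d. FFPE minus FROZ of the sum was 1.23 ± 0.24 in vehicle livers and 0.34 ± 0.26 at 427 mg/kg-d (SD, n = 6 each). Serpina1e made up 43.9 to 55.8% of the sum in FROZ and 5.64 to 10.4% in FFPE of vehicle livers, and 7.34 to 36.9% and 0.242 to 1.504% at 427 mg/kg-d.

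**Figure D5:**
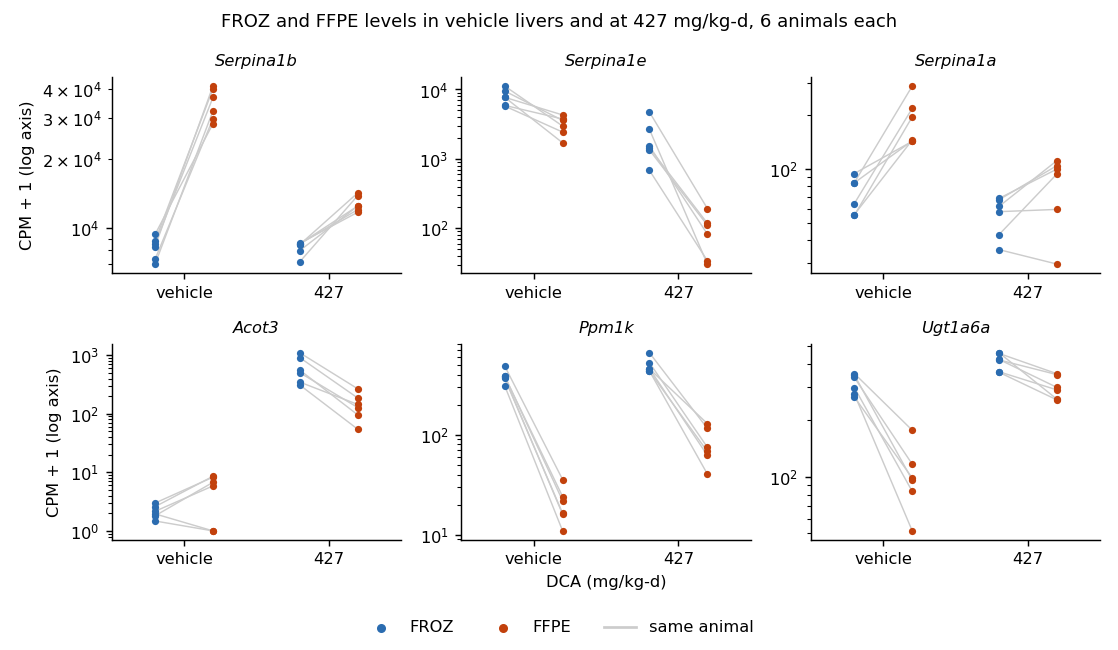
CPM + 1 on log axes in FROZ and FFPE libraries of 6 vehicle and 6 treated (427 mg/kg-d) animals for Serpina1b, Serpina1e and Serpina1a and for Acot3, Ppm1k and Ugt1a6a, FROZ in blue and FFPE in orange, with a line joining the libraries of an animal. The FFPE values of Serpina1b drop from 28373 to 41297 CPM to 11718 to 14214 while its FROZ values overlap.

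Acot3, Ppm1k and Ugt1a6a passed the test in fewer settings. Acot3, a peroxisomal thioesterase, was at 0.476 to 1.99 CPM in FROZ and 0 to 7.56 in FFPE of vehicle livers, and at 309 to 1099 and 53.5 to 266 CPM at 427 mg/kg-d. The difference between doses was -2.94 (SE 0.52, FDR 0.0474), and 19.5% of its windows are shared, most often with Gm49366. The vehicle values rest on few reads, 4 to 18 in FROZ libraries, and 0 in the FFPE libraries of animals 3 and 7. Acot3 passed in 4 of 9 other settings, with FDR up to 0.99995. Ppm1k, the phosphatase that activates branched-chain ketoacid breakdown, was at 430 to 659 CPM in FROZ and 39.4 to 128 in FFPE at 427 mg/kg-d, with a difference between doses of 1.61 (SE 0.25, FDR 0.0205). Ugt1a6a, a glucuronosyltransferase of phenols, was at 359 to 456 and 256 to 353 CPM, with a difference between doses of 1.22 (SE 0.20, FDR 0.0273). Ugt1a6a shares 97.7% of its windows with 8 other genes, most often Ugt1a7c, so that its reads may not come from it alone. The probed stretch was not used here, so this was not tested. When each of the 12 animals was left out in turn, Serpina1b and Serpina1e passed every time, with FDR up to 0.000285 and 0.0219. Ppm1k passed 6 times, Ugt1a6a 4 times and Acot3 2 times. Without animal 97, 99, 101 or 102, or without vehicle animal 8, 2 genes passed, and without animal 100, 3 genes. Serpina1b alone passed when the variance prior had no trend, where Serpina1e had an FDR of 0.0761.

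The spread between animals was wider in FFPE. Over 4816 genes with at least 10 CPM in both preservations, the median SD of log2(CPM + 1) over 6 animals was 0.17 in FROZ and 0.47 in FFPE, and 92.9% of genes had the larger SD in FFPE. In vehicle livers it was 0.17 and 0.60.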

How the data were processed

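TempO-Seq libraries of the 6 mice at 427 mg/kg-d and the 6 vehicle mice were grouped by the dose and preservation in their labels, and libraries were paired within a mouse through the number in their titles. The deposited values are log2(CPM + 1), which the authors made in separate tables for FROZ and FFPE. Per the labels and methods, reads were aligned to mm10 with STAR 2.6 in Partek, counted on RefSeq genes by expectation maximization, filtered on a geometric mean above 1 and scaled to CPM, and abundant probes were attenuated equally in all samples.

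CPM were recovered, rescaled to a sum of 1000000 over the 6591 symbols listed once in both tables, and tested by limma 3.58.1 (R 4.3.3) on each animal's FFPE minus FROZ difference, with an offset of 1 CPM, a variance prior that follows the mean level, and the animal as block. The pairing was checked by correlating deviations from the group mean over 4816 genes, where r was 0.12 to 0.22 within an animal (median 0.16) and -0.04 in the median between animals. The CPM of 1 read was taken from the steps of low values, 96.5 to 97.1% of which were whole reads in FROZ and 86.5 to 92.2% in FFPE at 427 mg/kg-d (within 0.1 read). That precision gives the read totals and the 3-read limits, which cover counting error only. The test was tried on simulated differences for 6591 genes of which 200 were changed. There 78% of changes of log2 1.5 and 97% of log2 3 were called, as were 8 unchanged genes. The simulation changed far fewer genes than were called in the data. Each mouse gave 1 library a preservation, so p-values cover the spread between mice.

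The genes named are the 10 largest increases and decreases among calls shared by all 6 animals with at least 10 CPM in the higher preservation, the genes whose difference departed from vehicle (1 of 6 is not reported here), the Serpina1 and DCA marker genes, and for each of 29 gene lists up to 2 members per direction and the most abundant member. Symbols that read as dates (9) were left out of naming, and 3 lists had no member in both tables. Sec24a, Tmem19, Clec4f, Gpr182, Dnase1l3 and Oit3, listed in FROZ alone, were named after their values were seen. Members and lists were chosen with earlier results of these data known. Alternatives were other scalings, offsets, filters, variance priors, weights, a fit without the block and leaving out each animal.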

Additional observations from a re-analysis of the deposited data

Results flagged for a closer look

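The FFPE minus FROZ difference at 427 mg/kg-d departed from that in vehicle livers for the genes named here, by limma on the differences of 6 and 6 animals. The departures were -1.44 for Serpina1b (FDR 3.55e-05), -3.09 for Serpina1e (FDR 0.00486), 1.61 for Ppm1k (FDR 0.0205), 1.22 for Ugt1a6a (FDR 0.0273) and -2.94 for Acot3 (FDR 0.0474), on the log2 scale. The Acot3 value rests on few reads in vehicle livers.

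A single animal stood apart from the other 5 in 7 of 63 sets of 6 values examined, by Dixon's ratio of gap to range at its 95% value. Chance alone gives about 1 in 20. Animal 97 had 4 genes at 0 in FROZ against 1 to 2 in the others, and its FFPE minus FROZ difference of Cyp3a41a was -6.60 against -5.55 to -5.01. Animal 102 differed by -6.44 in Serpina1e (others -4.61 to -3.60) and by 4.56 in Dot1l (others 5.16 to 5.50). Animal 99 differed by 3.13 in Bloc1s4 (others 4.24 to 4.84) and by 1.86 in Alas2 (others 3.16 to 3.63). Animal 101 differed by 1.99 in Hnf4a (others 1.43 to 1.62). All 6 gene differences kept the direction of the other 5 animals, which the rule for naming Dot1l, Bloc1s4 and Cyp3a41a required.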

How the results depend on the processing

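The counts of genes higher and lower in FFPE (2128 and 1403) stayed within 1.5 times under each alternative but one. Requiring 10 CPM in both preservations left 1089 higher genes of 4816 tested, with 1229 lower, so that the larger group turned to lower. The share of higher genes among calls went from 60.3 to 47.0% and the median difference from 0.31 to -0.05. This filter left out the whole lowest decile by FROZ level (0.145 to 3.73 CPM), where 514 genes were higher and 0 lower. The cause of the turn was not tested. Under median-ratio scaling lower genes were also the larger group, with 1538 higher and 1928 lower. Counts of higher and lower genes were 2201 and 1351 on CPM as deposited and 1435 and 1154 with an offset of 10 CPM. They were 2072 and 1375 with 0.1 CPM, and 1710 and 1136 with all 24 animals in 1 fit. Leaving out each animal gave 2060 to 2142 and 1380 to 1413. The fit with no replicate block, which treats paired libraries as separate groups, gave 2115 and 1388, and 4 genes in place of 6 for the departure from vehicle, where Mup1 and Mup4 joined Serpina1b and Serpina1e.

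The count of 6 genes that departed from vehicle became 14 with an offset of 10 CPM, 11 with array weights, 2 with 24 animals in 1 fit and 1 without the trend. Leaving out a treated animal gave 2 to 5 genes and leaving out a vehicle animal 2 to 8. The cause was not tested.

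With 5 pairs an exact p cannot go below 0.0625, so the read ratio (-0.69 to -0.65) and the genes at 0 (113.6 to 151.6 more in FFPE) could not pass without an animal, while their direction was kept. Of 614 alternative values for 57 named genes, 609 kept direction and call, though many of these genes were named for their large differences. Bmp2 lost its call with an offset of 10 CPM (-0.99) and in 1 fit of 24 animals (-1.32). Acot1 (-0.20), Cyp2a4 (-0.33) and Apoa1 (-0.30) turned negative under median-ratio scaling. Of 207 alternative values for 26 gene lists, 152 stayed the same and 55 moved. A gene at 0 in FFPE could be at up to 0.708 CPM in the shallowest library.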
